A study of Mus musculus with 14 samples.

Results

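The genes described here encode the spliceosomal small nuclear ribonucleoproteins (snRNPs) and core splicing factors. They are 49 genes, matched by gene symbol in both deposited tables, out of 56953 genes in the table of the BaCl2 injury and 14330 genes in the table of the glycerol injury. Fibro-adipogenic progenitors (FAPs), the mesenchymal stromal cells of skeletal muscle, were taken by magnetic sorting (MACS) from the tibialis anterior (TA) muscle 3 days after an injury. The groups were 3 libraries labelled SMA and 3 labelled WT after BaCl2, a salt that destroys muscle fibres, and 4 SMA and 4 WT libraries after glycerol, an injury that is followed by fat deposition in muscle. SMA stands for the spinal muscular atrophy genotype of the series title. The labels do not name its alleles, the strain, the age of the mice or the antibodies of the sort, and they do not say whether replicates came from separate animals, so each p-value measures only the spread between these samples. Each injury has its own libraries and its own deposited table. A comparison between injuries is thus also one between these sets of libraries, and injury and any batch cannot be told apart.

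Introns are removed from pre-mRNA by the spliceosome, which is built from snRNPs. Each snRNP of the major spliceosome holds an RNA (U1, U2, U4, U5 or U6) and its proteins: a ring of Sm proteins on U1, U2, U4 and U5, a ring of LSm proteins on U6, and proteins particular to one snRNP. U1 binds the start of an intron and U2 its branch site, the tri-snRNP of U4, U6 and U5 then joins, and the complex is rearranged into its active form. A minor spliceosome with its own U11 and U12 proteins removes a rare class of introns. The SMN protein, which is deficient in spinal muscular atrophy, places the Sm ring on the snRNA, and for that reason the genes of the ring and of the other snRNP proteins are of interest in SMA cells.

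The BaCl2 libraries held 97.7 to 136 M counts (M, mega), of which the 49 genes took 0.314% to 0.359%. The glycerol values were counts already normalized by the authors, with sums of 71.4 to 76.6 M, so their depth is unknown, and the 49 genes took 0.299% to 0.344% of them. Levels after BaCl2 are given as counts per M counts of the library (CPM) and those after glycerol as normalized counts, and the units cannot be set against each other. Smn1, the gene of the SMN protein, checked the labels: after BaCl2 it stood at 11.96, 9.99 and 11.3 CPM in the SMA libraries and at 15.9, 17.2 and 15.3 CPM in the WT libraries. After glycerol it was at 640, 806, 738 and 794 normalized counts in SMA and at 1209, 935, 1084 and 1108 in WT. The groups did not overlap in either injury, and the SMA mean was 68.8% of the WT mean after BaCl2 (edgeR adjusted p = 0.0131) and 68.7% after glycerol (limma adjusted p = 0.0364). The call after glycerol was lost without any 1 library but SMA 3 (adjusted p 0.0548 to 0.113), with a replicate block (0.0715) and with no mean-variance trend (0.0641). That after BaCl2 was lost without SMA 2, WT 2 or WT 3 (0.0670 to 0.0752).

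The sorted cells expressed all 10 FAP markers examined in both injuries, and no FAP marker or macrophage marker was at 0. In bulk RNA, fewer cells of a type and less RNA per cell cannot be told apart. After BaCl2 13 of 14 macrophage and monocyte markers passed the test as higher in SMA, with summed levels of 1912 to 2930 CPM in SMA and 1071 to 1477 CPM in WT, and 6 of 10 FAP markers passed as lower. After glycerol 5 of the 14 macrophage markers passed as higher, with summed levels of 116800 to 288600 normalized counts in SMA and 103100 to 134000 in WT, and 0 of 10 FAP markers passed. Of the other cell types, 1 of 4 neutrophil markers passed as higher in each injury, 2 of 5 Schwann cell markers passed as higher and 1 of 3 satellite cell markers as lower after BaCl2. Of the endothelial markers 1 of 6 passed as lower after glycerol (5 of 6 at an unadjusted p under 0.05, median log2 fold change -0.87) and 0 passed after BaCl2. No lymphocyte marker passed, 1 of the 5 being at 0 in all BaCl2 libraries. These shifts stand beside every comparison of SMA with WT below, and their part in the splicing factor results was not tested.

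All 49 splicing factor genes were present in both injuries, and most were expressed well above a typical gene. Among 19598 genes tested after BaCl2 and divided by exon length, their median percentile was 83.5, and 47 of the 49 stood above the median gene. Levels between genes are compared here per kilobase of exon (CPM per kb), as the mean of the WT libraries after BaCl2. The highest level was that of Snrpb, which encodes the Sm proteins B and B', at 61.9 CPM per kb. It was followed by U2af2, the large subunit of the factor that reads the end of an intron, at 47.6 CPM per kb, and by Lsm4 of the U6 ring at 44.0 CPM per kb.

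The 7 Sm genes had a median of 21.6 CPM per kb, the 4 genes of U1 16.5, and the 13 genes of U2 and branch site recognition 15.4. The 12 genes of the tri-snRNP and of spliceosome activation had a median of 8.17 CPM per kb and the 7 LSm genes 6.74. The 6 genes of the minor spliceosome had the lowest median at 4.55 CPM per kb. No test was made of these differences in level.

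Within a group the range was wide. The length used is the union of all annotated exons of a gene, so the order depends on the annotation as well as on the counts. Without division by length the WT mean of Snrpc (43.7 CPM) stood beside that of Snrpa (43.4 CPM), also of U1. That of Lsm8 (15.5 CPM) was then above that of Lsm2 (11.9 CPM). In U1 it ran from Snrpc at 6.70 to Snrnp70, the protein that binds the first stem-loop of U1 RNA, at 28.7 CPM per kb. In the U2 group it ran from Snrpa1 at 7.32 to U2af2, with Sf3b1, the scaffold of the branch site complex, at 35.6. In the LSm ring Lsm8, the subunit that sets the U6 ring apart from the cytoplasmic one, was lowest at 3.69. In the tri-snRNP group the scaffold of the catalytic centre, Prpf8, led at 31.4 and the small U5 protein Txnl4a was lowest at 3.19. In the minor spliceosome Snrnp25 led at 8.06 and Rnpc3 was lowest at 1.72.

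The order of levels after glycerol was close to that after BaCl2 with 1 exception. For each gene the mean WT level after glycerol was divided by that after BaCl2, and 48 of the 49 ratios lay between 0.767 and 1.60 times their median. The exception was the Sm gene Snrpf, whose ratio was 275.7 times the median. It held only 12, 15 and 15 counts in the SMA libraries and 25, 19 and 14 in the WT libraries after BaCl2, while after glycerol its 3569 normalized counts per kb in WT were exceeded only by Snrpb. The cause of this gap was not tested, and at these counts the 95% interval of its log2 fold change after BaCl2 ran from -1.50 to 0.71. Small Sm and LSm genes have processed copies elsewhere in the genome, and how reads shared with such copies were assigned is not given in the sources used here.

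**Figure D1:**
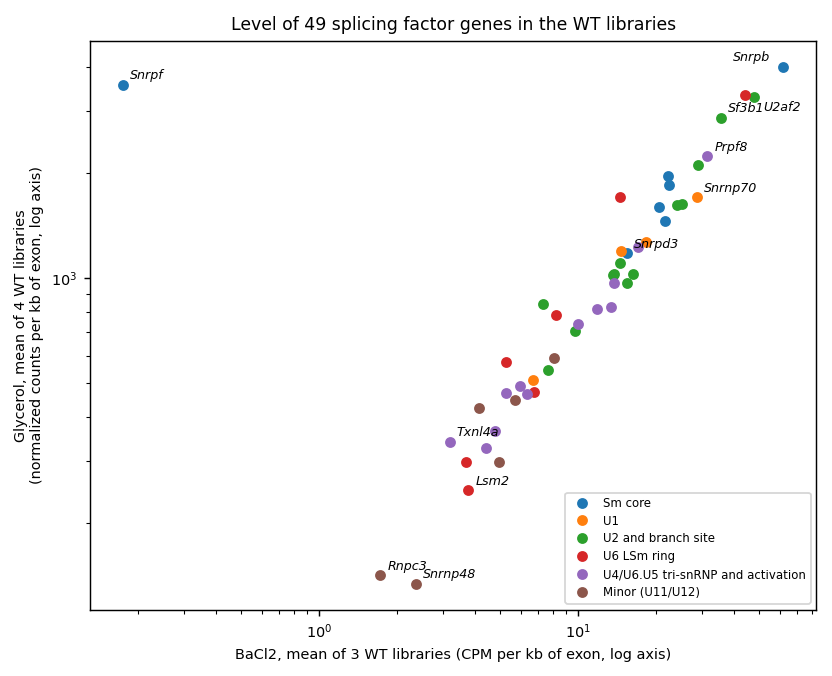
Mean level of the 49 splicing factor genes in the WT libraries, after BaCl2 (horizontal axis, CPM per kb of exon, 3 libraries) against after glycerol (vertical axis, normalized counts per kb of exon, 4 libraries), both axes logarithmic. Each point is a gene coloured by its role; the points lie along 1 line except Snrpf, at 0.176 CPM per kb after BaCl2 and 3569 normalized counts per kb after glycerol.

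Replicates of 1 group were close to each other for these genes. After glycerol the median SD of the log2 level among the WT libraries was 0.063 for the 49 genes and 0.092 for the 10134 genes at or above the lowest of them. After BaCl2 the values were 0.064 for 48 genes, without Snrpf, and 0.075 for 10401 genes. The least variable were Snrnp40 after BaCl2 (SD 0.019) and Sf3b1 after glycerol (SD 0.014), and the most variable was Snrpg after glycerol (SD 0.29).

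Promoter sequence is described here for the genes together, and whether a motif goes with the direction of change was not tested. RefSeq promoter windows on build GRCm38.p6, from 250 bases before to 50 after the start of a gene, were found for 40 of the 49 genes. Among the genes without a window were Sf3b5, Snrpd1, Eftud2, Snrnp40 and Txnl4a, which are described per library below. The ETS motif CCGGAAG, read on both strands, was present in 17 of the 40 windows (42.5%), against 17.1% of 10943 windows of genes tested in both injuries and 9.12% of all 27025 windows. The NRF1 motif, GCGCA and GCGC with any 1 base between them, was present in 9 (22.5%), against 9.8% and 4.78%. The GC box GGGCGG was present in 62.5% of the members' windows against 63.3% of those of the tested genes, and CCAAT in 37.5% against 38.6%. The E-box CACGTG was present in 5% of the members' windows against 9.81%, and TATAAA in 7.5% against 7.27%. No motif contains another. A match describes the letters of the window and is not evidence of binding.

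Below are the 150 bases before the start for 4 of the genes described per library further on, all on the plus strand. Prpf31 and Snrpd3 are shown because they passed the z test of the difference between injuries given below. Snrpd2 shows an NRF1 match and Snrnp200 an ETS match. Capitals mark a match to any of the 6 motifs on either strand.
Prpf31, chr7:3629835-3629984: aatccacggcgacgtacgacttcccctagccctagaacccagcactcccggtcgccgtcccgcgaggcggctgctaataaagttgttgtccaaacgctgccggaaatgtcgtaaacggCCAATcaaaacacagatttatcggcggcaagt
Snrpd3, chr10:75517892-75518041: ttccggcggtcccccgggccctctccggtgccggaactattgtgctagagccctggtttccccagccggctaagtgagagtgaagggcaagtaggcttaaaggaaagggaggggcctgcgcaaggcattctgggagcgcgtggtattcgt
Snrpd2, chr7:19149688-19149837: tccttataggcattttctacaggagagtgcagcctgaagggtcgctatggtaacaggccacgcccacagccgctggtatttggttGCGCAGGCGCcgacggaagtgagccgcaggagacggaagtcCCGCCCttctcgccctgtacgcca
Snrnp200, chr2:127208236-127208385: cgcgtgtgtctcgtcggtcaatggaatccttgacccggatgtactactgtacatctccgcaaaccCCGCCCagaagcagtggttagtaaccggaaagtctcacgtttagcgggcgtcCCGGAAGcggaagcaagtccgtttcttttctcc
The CCAAT match of Prpf31 began at base -32, counted back from the start. Snrpd3 held none of the motifs in these bases, and its GC box and CCAAT matches lie in other parts of the window. The NRF1 match of Snrpd2 began at base -65 and the ETS match of Snrnp200 at base -33, and both genes also held a GC box on the opposite strand, at bases -24 and -85.

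After BaCl2 the splicing factor genes differed little between SMA and WT. With edgeR's quasi-likelihood test, 0 of 49 passed at the adjusted threshold, against 4.29% of the 20119 genes tested. At an unadjusted p under 0.05 there were 3, all higher in SMA: Snrpa1, Prpf8 and Snrnp200. That is 6.12% of 49, where 9.67% of all genes tested were higher and 9.58% lower at that level. The median log2 fold change was 0.02, against -0.00 over all genes tested, and 30 of 49 genes lay above 0. In 8 genes the groups did not overlap, 6 with SMA higher and 2 with SMA lower (Lsm7 and Rnpc3), or 16.3% of 49, against 25.3% of all genes tested.

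Snrpa1, the U2 protein A' that holds the stem-loop of U2 RNA together with Snrpb2, had the smallest p. It was at 32.9, 27.1 and 25.9 CPM in SMA and at 22.7, 24.8 and 22.1 CPM in WT. Every SMA library lay above every WT library, with SMA 1 highest. The log2 fold change was 0.30 (SE 0.095) and missed the threshold (edgeR adjusted p = 0.113). Its partner Snrpb2 had a log2 fold change of 0.04.

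Several large proteins of U5 lay on the higher side. Prpf8 was at 270.0, 260.0 and 259.3 CPM in SMA and at 221, 236 and 246 CPM in WT, without overlap, with a log2 fold change of 0.17 (SE 0.060, edgeR adjusted p = 0.155). Snrnp200, the helicase that unwinds U4 from U6, was at 149, 149 and 148 CPM in SMA and at 127, 134 and 139 CPM in WT, again without overlap, with a log2 fold change of 0.16 (SE 0.056, edgeR adjusted p = 0.161). Eftud2, the U5 GTPase, was at 115, 104.2 and 104.1 CPM in SMA and at 94.7, 103.6 and 99.9 CPM in WT.

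Snrnp40, a U5 protein built of repeats that bind other proteins, was at 28.8, 27.1 and 26.8 CPM in SMA and at 25.5, 24.9 and 25.2 CPM in WT. Prpf31, which bridges U4/U6 and U5, was at 39.5, 35.3 and 33.7 CPM in SMA and at 32.7, 33.6 and 31.3 CPM in WT. The SMA libraries of both genes lay above all WT libraries, for Prpf31 by a narrow margin between SMA 3 and WT 2. Their log2 fold changes were 0.13 (SE 0.063, edgeR adjusted p = 0.302) and 0.15 (SE 0.074, edgeR adjusted p = 0.296). In the tri-snRNP and activation group 11 of 12 genes lay above 0, with a median of 0.06. In 5 of them (Prpf8, Snrnp200, Eftud2, Snrnp40 and Prpf31) the groups did not overlap. Over all genes tested 50.6% lay below 0, and the groups did not overlap, in either direction, in 25.3%. Of 47 other spliceosome proteins, described further below, 33 also lay above 0 after BaCl2, with a median of 0.05.

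The Sm and LSm rings showed no such lean after BaCl2. Of 7 Sm genes 4 lay below 0, with a median log2 fold change of -0.03, and of 7 LSm genes 4 lay below 0, with a median of -0.06. Lsm5, a subunit of the U6 ring, was at 10.9, 8.24 and 10.3 CPM in SMA and at 11.5, 12.1 and 10.7 CPM in WT. Only SMA 1 overlapped with WT, and the log2 fold change was -0.22 (SE 0.11, edgeR adjusted p = 0.339). The minor spliceosome genes had a median of -0.04 and those of U1 -0.03.

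The precision of these comparisons can be stated as an interval. The 95% interval of the fold change lay within 1.5-fold in either direction for 48 of 49 genes after BaCl2, Snrpf being the exception, and for 49 of 49 after glycerol. The median SE of the log2 fold change was 0.074 for the 49 genes after BaCl2 and 0.062 after glycerol, against 0.14 and 0.10 over all genes tested. The numbers called after BaCl2 moved with the method: DESeq2 called Snrpa1, and scaling by library totals alone called Prpf8 and Snrnp200. Without SMA 3 after BaCl2 edgeR called Snrpa1 too. In the authors' deposited table for BaCl2 3 of the 48 members listed were higher at an adjusted p under 0.05, Snrpa1 (0.0268), Prpf8 (0.0300) and Snrnp200 (0.0330), and 0 were lower. This is 6.25% of the members, where 7.74% of all genes in the authors' deposited table for BaCl2 were higher.

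**Figure D2:**
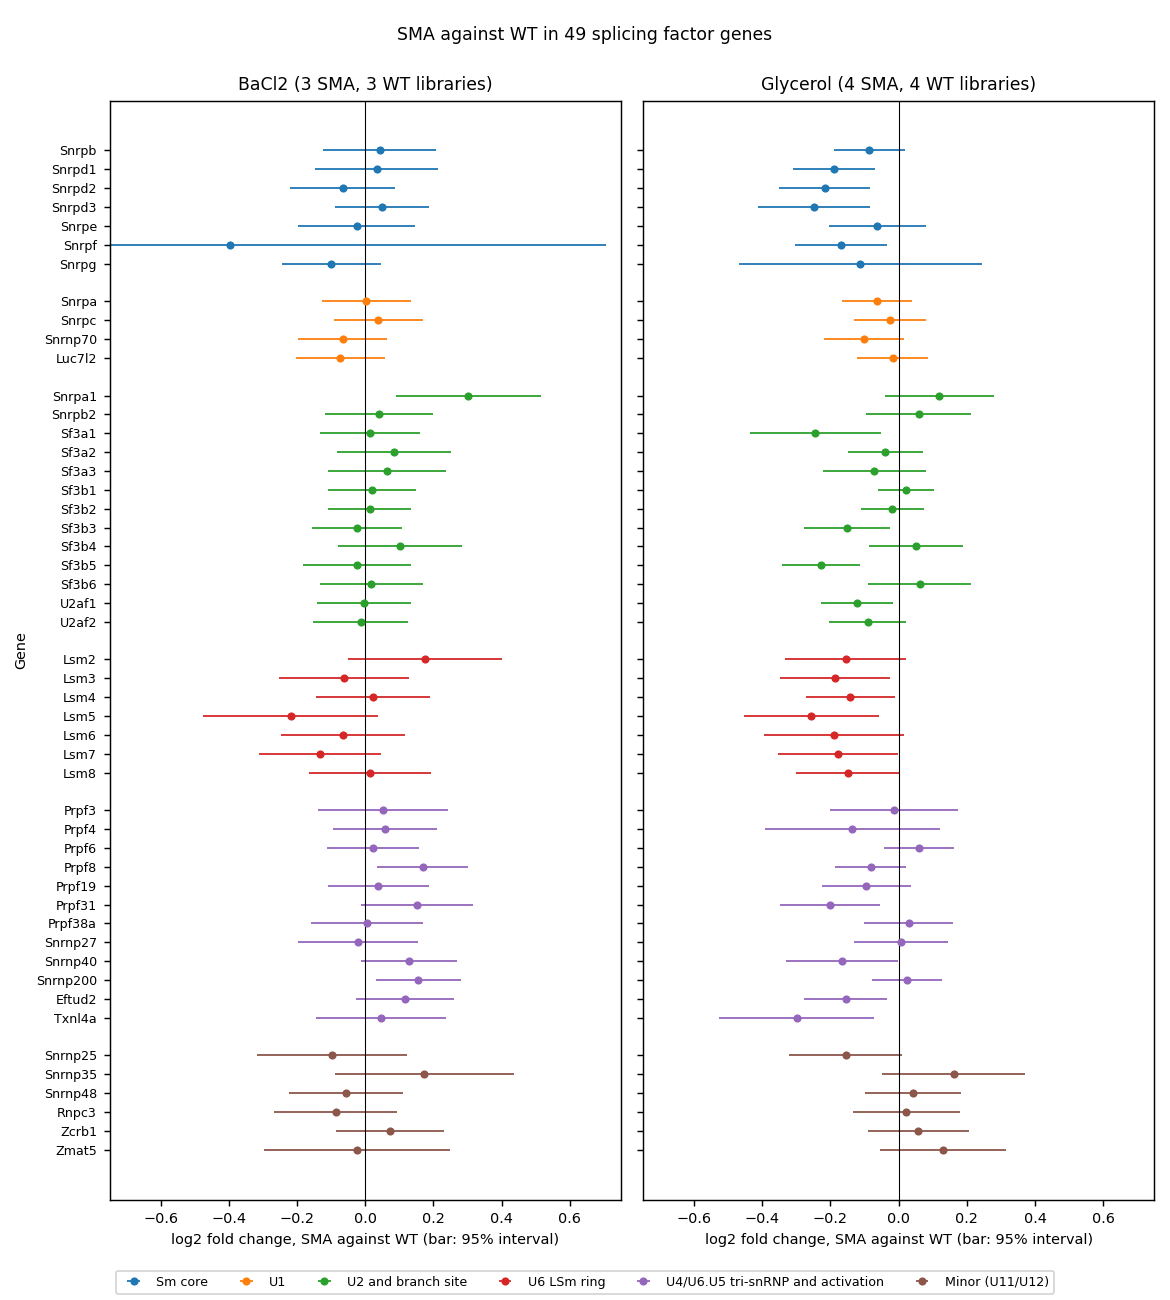
Log2 fold change of SMA against WT (horizontal axes) for the 49 splicing factor genes (vertical axis), grouped and coloured by role, after BaCl2 (left, 3 against 3 libraries) and after glycerol (right, 4 against 4); bars are 95% intervals, and that of Snrpf after BaCl2 runs past the left edge to -1.50. After glycerol all 7 Sm and all 7 LSm genes lie below 0, and after BaCl2 11 of the 12 tri-snRNP and activation genes lie above 0.

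After glycerol the splicing factor genes lay mostly on the lower side in SMA, by small amounts. Of the 49 genes 35 had a log2 fold change below 0 (71.4%, against 50% of all genes tested), and the median was -0.09, against -0.00 over all genes tested. Of 4 related lists described further below, those of snRNP assembly and transport (70% below 0) and hnRNP proteins (88.5%) leaned likewise. Other spliceosome proteins (55.3%) and SR proteins and their kinases (61.1%) did so less. With limma, 1 of 49 passed as lower, Sf3b5, and 0 as higher, where 1.17% of the 14330 genes tested passed as lower. At an unadjusted p under 0.05 there were 16, all lower (32.7% of 49), where 11% of all genes tested were lower and 12.3% higher at that level. In 12 genes the highest SMA library was below the lowest WT library (24.5% of 49), against 7.54% of all genes tested, and in 0 the reverse held.

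Sf3b5, a small subunit of the SF3B complex that holds the branch site, was at 1725, 1771, 1860 and 1825 normalized counts in SMA. It was at 2144, 2047, 2152 and 2064 in WT. The groups did not overlap and the SMA mean was 85.4% of the WT mean. The log2 fold change was -0.23 (SE 0.051, limma adjusted p = 0.0498). The call was at the edge of the threshold: the adjusted p was 0.0803 to 0.146 when any 1 library other than SMA 3 was left out (SMA 1, SMA 2, SMA 4 or any of WT 1 to WT 4). It was 0.0814 with a replicate block, 0.0730 with no mean-variance trend and 0.0506 with a pseudocount of 16.

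In the Sm ring all 7 genes lay below 0 after glycerol, with a median log2 fold change of -0.17, and none passed. Snrpd3 was at 3511, 3042, 3636 and 3453 normalized counts in SMA and at 4266, 3686, 3952 and 4288 in WT. Snrpd2 was at 3842, 3347, 3759 and 3441 in SMA and at 4388, 3972, 4209 and 4142 in WT. In both the groups did not overlap, and SMA 2 was the lowest library.

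Snrpd1, which pairs with Snrpd2 in the ring, was at 2663, 2512, 2691 and 2627 normalized counts in SMA and at 3109, 2863, 3135 and 2859 in WT, again without overlap. The log2 fold changes of Snrpd3, Snrpd2 and Snrpd1 were -0.25 (SE 0.073), -0.22 (SE 0.060) and -0.19 (SE 0.053), with limma adjusted p of 0.0913, 0.0777 and 0.0829. Snrpf also lay lower without overlap, at 2852, 2652, 2907 and 2524 in SMA and 3048, 2986, 3249 and 3010 in WT, with a log2 fold change of -0.17 (limma adjusted p = 0.136). The other Sm genes, Snrpb, Snrpe and Snrpg, overlapped between the groups and had log2 fold changes of -0.09, -0.06 and -0.11.

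The LSm ring stood close to the Sm ring. All 7 LSm genes lay below 0 after glycerol, between -0.26 (Lsm5) and -0.14 (Lsm4), with a median of -0.18, and none passed. Lsm5 was at 1182, 1111, 1265 and 966 normalized counts in SMA and at 1381, 1288, 1409 and 1303 in WT, with a log2 fold change of -0.26 (SE 0.088, limma adjusted p = 0.131). In Lsm5, Lsm3 and Lsm4 the groups did not overlap, and SMA 4 was the lowest library for Lsm5 and Lsm4.

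In the U2 group 8 of 13 genes lay below 0 after glycerol. Besides Sf3b5, the SMA libraries of Sf3a1 and Sf3b3, subunits of the SF3A and SF3B complexes, and of U2af1, the small subunit of the U2 auxiliary factor, lay below all WT libraries. Their log2 fold changes were -0.24, -0.15 and -0.12, and none passed. On the other side lay Snrpa1, Snrpb2, Sf3b1, Sf3b4 and Sf3b6, between 0.02 and 0.12, and none passed. All 4 genes of U1 (Snrpa, Snrpc, Snrnp70 and Luc7l2) lay below 0, between -0.10 and -0.02.

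In the tri-snRNP and activation group 8 of 12 genes lay below 0 after glycerol, with a median of -0.09. Prpf31 was at 2383, 2145, 2371 and 2379 normalized counts in SMA and at 2618, 2523, 2948 and 2595 in WT. The groups did not overlap, and the log2 fold change was -0.20 (SE 0.065, limma adjusted p = 0.113). Txnl4a had the largest log2 fold change of the 49, at -0.30 (SE 0.10, limma adjusted p = 0.125), with 1166, 1273, 1081 and 1499 normalized counts in SMA and 1644, 1439, 1548 and 1505 in WT. Its SMA 4 library lay within the WT range, and the other SMA libraries lay below it.

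The minor spliceosome lay on the other side of 0. Of its 6 genes 5 had a log2 fold change above 0, with a median of 0.05, and only Snrnp25, a U11 protein, lay below, at -0.16. None of the 6 passed, and the groups overlapped in all of them. Snrnp35, the U11 counterpart of Snrnp70, had the highest value of the 49 after glycerol at 0.16 (SE 0.093, limma adjusted p = 0.328), and it was 0.17 after BaCl2 (SE 0.12).

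In the authors' deposited table for glycerol 4 of the 49 genes were lower in SMA at an adjusted p under 0.05, and 0 were higher. They were Sf3b5 (0.000772), Snrpd1 (0.0179), Snrpd2 (0.0203) and Snrpd3 (0.0311). This is 8.16% of the members, where 5.21% of all genes in the authors' deposited table for glycerol were lower. Leaving out SMA 3, the limma test after glycerol passed 5 of the 49 genes as lower (Eftud2, Lsm5, Sf3b5, Snrpd2 and Snrpd3). Over all genes tested 564 then passed as lower, against 168 with every library kept. Leaving out any other library, the test passed 0 of the 49 genes.

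By a z test over the 13960 genes present in both injuries, the log2 fold change after glycerol was lower than that after BaCl2 for 5 of the 49 genes, where 5% of all genes passed as lower. This test is lenient with so few libraries: with a t distribution in its place only Prpf31 passed (adjusted p = 0.0493), and the others had an adjusted p of 0.0667 to 0.0838. They were Prpf31, Prpf8, Eftud2 and Snrnp40 of the tri-snRNP and activation group and Snrpd3 of the Sm ring, and 0 of 49 passed as higher. Of the 49 genes 38 had a difference below 0 (77.6%, against 47.8% of all genes present in both injuries). The median was -0.08, against 0.01 over all these genes. The fold changes of the injuries come from separate libraries and separately normalized tables.

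Prpf31 (ENSMUSG00000008373.17) had the largest difference, -0.35 (95% interval -0.55 to -0.16, z test adjusted p = 0.00764). It was the only one of the 49 with SMA above all WT libraries after BaCl2 and below all WT libraries after glycerol. The SMA mean was 111% of the WT mean after BaCl2 and 86.9% after glycerol.

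Prpf8, Eftud2 and Snrnp40 of U5 also passed, while Prpf6, Snrnp200 and Txnl4a of U5 did not (z test adjusted p = 0.818, 0.247 and 0.0705). Prpf8 (ENSMUSG00000020850.15) was at 15750, 15540, 16560 and 15090 normalized counts in SMA after glycerol and at 16100, 17570, 16350 and 16590 in WT. SMA 3 lay within the WT range and the others below it, and the log2 fold change was -0.08. The difference from its 0.17 after BaCl2 was -0.25 (95% interval -0.40 to -0.10, z test adjusted p = 0.0160).

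Eftud2 (ENSMUSG00000020929.15) was at 6269, 5840, 6609 and 5884 normalized counts in SMA after glycerol and at 6951, 6525, 7125 and 6775 in WT. SMA 3 alone overlapped with WT, and the log2 fold change was -0.16. It had been 0.12 after BaCl2 (SE 0.064), and the difference was -0.27 (95% interval -0.44 to -0.11, z test adjusted p = 0.0188).

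Snrnp40 (ENSMUSG00000074088.7) was at 1692, 1476, 1809 and 1656 normalized counts in SMA after glycerol and at 1913, 1822, 1941 and 1756 in WT. Here too SMA 3 overlapped with WT, and SMA 2 was lowest. The difference was -0.30 (95% interval -0.48 to -0.11, z test adjusted p = 0.0271).

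Snrpd3 (ENSMUSG00000020180.11) was at 58.3, 54.3 and 52.2 CPM in SMA and 54.4, 52.5 and 52.3 CPM in WT after BaCl2, where the groups overlapped. With its lower values after glycerol the difference was -0.30 (95% interval -0.48 to -0.11, z test adjusted p = 0.0248). Sf3b5, at 30.6, 27.6 and 28.2 CPM in SMA and 28.6, 31.2 and 28.1 CPM in WT after BaCl2, had a difference of -0.20 that did not pass (z test adjusted p = 0.114).

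**Figure D3:**
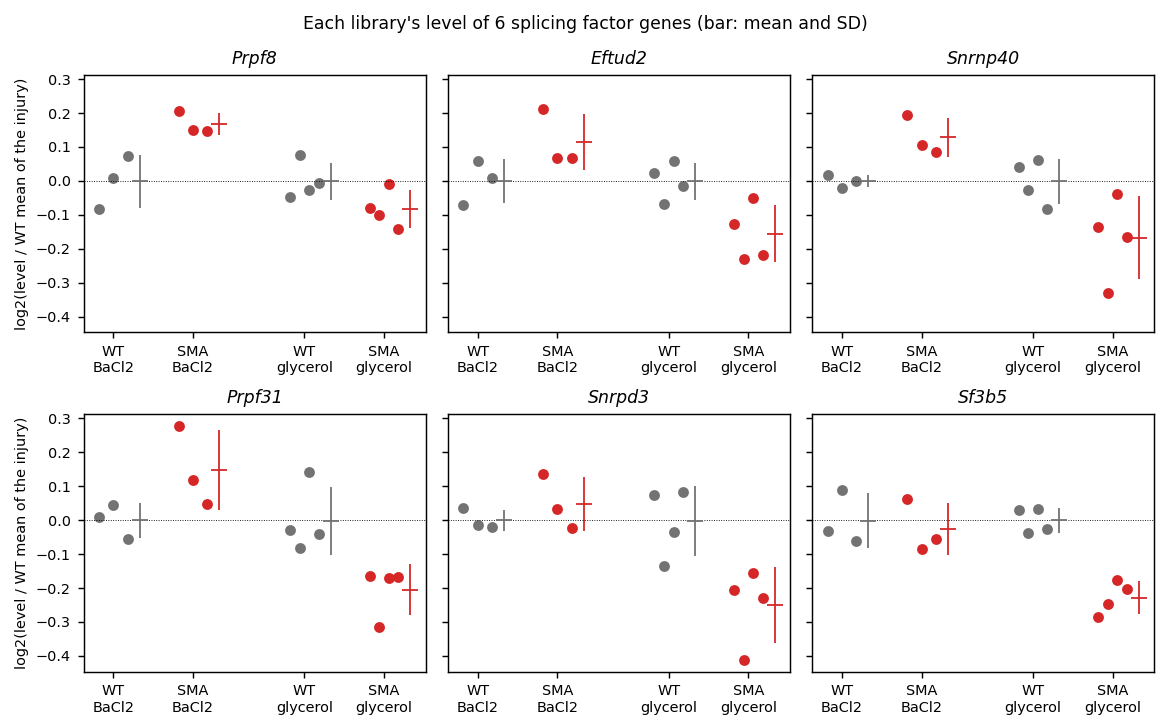
Level of 6 splicing factor genes in each library (points) as log2 of the ratio to the WT mean of the same injury (vertical axis), for WT (grey) and SMA (red) after BaCl2 (3 libraries each) and glycerol (4 each); bars give the mean and SD of the log2 values. Prpf31 lies above all WT libraries in SMA after BaCl2 and below all of them after glycerol, and Sf3b5 overlaps with WT after BaCl2 and lies below it after glycerol.

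The number of genes that passed the z test moved with single libraries. With 1 library left out the number was 2 without BaCl2 SMA 1 or glycerol SMA 2, 3 without BaCl2 WT 1, BaCl2 WT 3, glycerol WT 1 or glycerol WT 3, 8 without BaCl2 SMA 3, and 4 to 7 without any other, and Prpf31 passed each time.

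Side by side, 20 of the 49 genes had a log2 fold change above 0 after BaCl2 and below 0 after glycerol (40.8%, against 22.7% of all genes in both tables). Another 15 lay below 0 in both, 10 above 0 in both and 4 below after BaCl2 and above after glycerol. Among the 15 were Lsm5, at -0.22 and -0.26, and Snrpd2, at -0.07 and -0.22. Among the 10 were Snrpa1, at 0.30 and 0.12, and Snrnp200, at 0.16 and 0.02.

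By library, the mean log2 level of the splicing factor genes relative to WT was 0.10, -0.03 and -0.00 in BaCl2 SMA 1, 2 and 3. After glycerol it was -0.045, -0.128, -0.049 and -0.102 in SMA 1 to 4, with WT libraries between -0.055 and 0.053. SMA 1 and SMA 3 lay within the WT range, and only SMA 2 and SMA 4 lay below it. BaCl2 SMA 1 was thus the highest of its injury, and glycerol SMA 2 and SMA 4 were the lowest of theirs.

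The same libraries stood out for cell cycle genes. The mean log2 level of 10 cell cycle genes relative to WT was 0.28, 0.07 and 0.12 in BaCl2 SMA 1, 2 and 3, and -0.15, -0.40, -0.14 and -0.48 in glycerol SMA 1 to 4. Their summed level was 1016 to 1138 CPM in SMA and 955 to 995 CPM in WT after BaCl2, and 53940 to 65970 normalized counts in SMA and 68020 to 76690 in WT after glycerol. In the tests 1 of 10 passed as higher after BaCl2, 0 passed after glycerol with 8 of 10 lower at an unadjusted p under 0.05, and 8 of 10 passed as lower in the difference between injuries.

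The macrophage markers had mean log2 levels relative to WT of 1.21, 0.998 and 0.74 in BaCl2 SMA 1 to 3 and 0.94, 1.20, 0.16 and 1.48 in glycerol SMA 1 to 4. The libraries that stood out for splicing factor genes, BaCl2 SMA 1 and glycerol SMA 2 and SMA 4, were also the highest of their injuries in these markers. In glycerol SMA 3, the SMA library closest to WT in these markers, the splicing factor genes were at -0.05, as in SMA 1. Endothelial markers had summed levels of 158 to 207 CPM in SMA and 81.0 to 184 CPM in WT after BaCl2, and 6070 to 7919 normalized counts in SMA and 9184 to 13440 in WT after glycerol, and 5 of 6 passed as lower in the difference. The part of cell cycle, macrophage and endothelial levels in the splicing factor results was not tested.

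**Figure D4:**
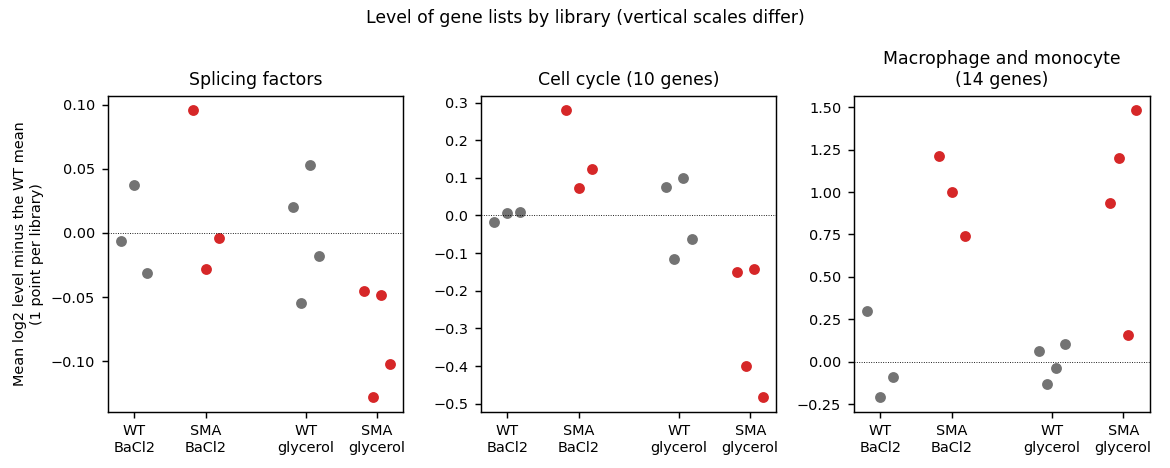
Mean log2 level of 3 gene lists minus the WT mean of the same injury (vertical axes, which differ in scale), 1 point per library, for WT (grey) and SMA (red) after BaCl2 and glycerol; Snrpf is left out of the splicing factor genes after BaCl2. Glycerol SMA 2 and SMA 4 are lowest for the splicing factor genes (-0.13 and -0.10) and for cell cycle genes (-0.40 and -0.48).

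The genes that work with these factors were examined as 4 lists. Over all genes tested, the share at an unadjusted p under 0.05 was 19.3% after BaCl2, 23.3% after glycerol and 24.6% in the difference, and the lists' counts at that level are to be read against it. By the z test of the difference 5% of all genes passed as lower, and the lists' calls are to be read against that share. Of 20 genes of snRNP assembly and transport, 19 were tested after BaCl2 and 20 after glycerol. After glycerol 14 of the 20 lay below 0, with a median log2 fold change of -0.085. Smn1 alone passed in each injury, as lower (DESeq2 after BaCl2 passed 1 as lower and 1 as higher), and its log2 fold change of -0.54 was the same in both (difference -0.00, 95% interval -0.27 to 0.27). In the difference between injuries 3 of 19 passed as lower: Wdr77, a subunit of the complex that methylates Sm proteins (-0.41, z test adjusted p = 0.00337), Gemin5, the SMN complex protein that recognises snRNA (-0.39, z test adjusted p = 0.0364), and Ncbp1, of the complex that binds the RNA cap (-0.32, z test adjusted p = 0.0312).

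Wdr77 was at 15.5, 14.3 and 15.7 CPM in SMA and at 12.1, 12.4 and 12.4 CPM in WT after BaCl2, without overlap. After glycerol it was at 2528, 2649, 2624 and 2567 normalized counts in SMA and at 2994, 2670, 3020 and 2475 in WT, where the groups overlapped. Gemin5 likewise lay above WT in all SMA libraries after BaCl2 (41.2, 37.5 and 34.6 against 28.4, 32.8 and 33.7 CPM) and overlapped after glycerol.

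Of 47 other spliceosome proteins 0 passed in either injury, and DESeq2 after BaCl2 passed 1 as higher. At an unadjusted p under 0.05 there were 6 after BaCl2, all higher, and 6 after glycerol, 4 lower and 2 higher. After BaCl2 33 of the 47 lay above 0, with a median log2 fold change of 0.05. In 11 of them SMA lay above all WT libraries and in 0 below, where the groups were apart in 25.3% of all genes tested. In the difference 2 of the 47 passed as lower, where 5% of all genes did. They were Isy1 (-0.37, z test adjusted p = 0.0116) and Usp39 (-0.32, z test adjusted p = 0.0450), which acts in joining the tri-snRNP. Of 18 SR proteins and their kinases, which help select exons, 0 passed in either injury or in the difference, with 2, 3 and 7 at an unadjusted p under 0.05 and 0 by DESeq2 after BaCl2. Of 26 hnRNP proteins, which bind nascent RNA, 0 passed in either injury, with 2 and 6 at an unadjusted p under 0.05 and 0 by DESeq2 after BaCl2, and 23 lay below 0 after glycerol. In the difference 3 hnRNP genes passed as lower: Hnrnpab (-0.23), Ptbp1 (-0.23) and Syncrip (-0.23), with z test adjusted p of 0.0246, 0.0241 and 0.0350.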

How the data were processed

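Polyadenylated RNA of sorted FAPs from 14 samples was sequenced with a strand-specific kit, per the labels' protocols. For BaCl2 the authors deposited whole-number counts per gene. For glycerol they deposited normalized counts, a signal per gene with depth unknown, for genes with a mean of at least 7.79. The log2 fold changes and p-values of the authors' deposited tables were used only where named. Per the submitters' processing notes fastp, Salmon, featureCounts and DESeq2 were used. The sources used here give no versions, roles, genome build or annotation. Another 6 columns of z-scores were not used.

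Counts after BaCl2 were filtered with filterByExpr, TMM-scaled and tested with edgeR 4.0.16 (R 4.3.3). Glycerol values were fitted as log2(value + 1) with limma 3.58.1 and a mean-variance trend, which slightly understates the changes of low genes. The difference between injuries was a z test of the fitted log2 fold changes. All p-values were adjusted over all genes tested by the method of Benjamini and Hochberg, with a threshold of 0.05. Exon lengths came from GENCODE, as the union of all annotated exons of a gene. Members with a call, at least 6 per comparison by smallest p, and members without overlap in both injuries are given by library. From each other list up to 4 called genes of smallest p are named. The members and lists were chosen with earlier results of these data known. Scripts were tested on simulated data, in which the z test passed more unchanged genes than its threshold allows, and a t distribution was added as an alternative. Alternatives were DESeq2 1.42.0, other scalings, filters and pseudocounts, a replicate block and leaving out libraries.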

Additional observations from a re-analysis of the deposited data

Results flagged for a closer look

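Prpf31 had 1 library apart from the rest of its group: after glycerol it was at 2145 normalized counts in SMA 2, against 2383, 2371 and 2379 in the other SMA libraries. Dixon's criterion marked this 1 group of 28 checked, and chance marks about 1 in 20.

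For 5 genes the SMA effect differed between the injuries by the z test of the difference, and for Prpf31 alone also with a t distribution. The log2 fold change after glycerol minus that after BaCl2 was -0.30 for Snrpd3, -0.35 for Prpf31, -0.30 for Snrnp40, -0.27 for Eftud2 and -0.25 for Prpf8.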

How the results depend on the processing

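No direction of a called value reversed under any alternative. After BaCl2, 0 members passed. DESeq2 passed 1 (1692 of all genes, against 863), no low-count filter 1 (1867), scaling by library totals 2, and leaving out 1 library 0 to 1 (41 to 1577 of all genes). Scaling by library totals moved the members' median log2 fold change to 0.091, and of 913 genes then called 169 were lower, against 314 of 863. Without SMA 1 and SMA 2, which leaves 1 SMA library that is assumed to vary like the WT libraries, 108 genes passed. After glycerol, 1 member and 411 genes passed. A pseudocount of 16 passed 0 members, no trend 0 (2 genes), and leaving out 1 library 0 to 5 (0 to 1645 genes). After centring on library medians 330 of 585 called genes were lower, against 168 of 411. In the difference, 5 members and 1470 genes passed. A t distribution passed 1 (530 genes), the 1 BaCl2 SMA library left without SMA 1 and SMA 2 gave 0 (586 genes), and leaving out 1 library 2 to 8. Centring the glycerol values made 942 of 1526 called genes lower, against 698 of 1470. The t distribution, the joint omission and the centring in the difference, and a check without Snrpf, were chosen after seeing the data. The causes were not tested, beyond the smaller number of libraries where some were left out.

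Replicate numbers are shared between SMA and WT, and the labels do not say whether they pair libraries. Deviations of same-numbered libraries from their group means had correlations of -0.126 to 0.087. With so few libraries this cannot settle whether they were paired. With a replicate block 0 members passed after BaCl2 (1144 genes), 0 after glycerol (257 genes) and 5 in the difference (1940 genes), and the adjusted p of Sf3b5 and Smn1 after glycerol was 0.0814 and 0.0715. Smn1 passed in 10 of 14 alternatives after BaCl2 and 6 of 15 after glycerol. In the difference Prpf31 passed in 19 of 20 alternatives, Prpf8 in 17, Eftud2 in 14, and Snrpd3 and Snrnp40 in 12 each.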
